A study of Homo sapiens with 4 samples.

Results

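Potassium, calcium and sodium channel genes were followed after METTL14 knockdown in neuroblastoma cells. The members were the protein-coding genes whose symbol starts with KCN or CACN, or with SCN followed by a number and A or B. Of 60671 gene IDs in the count table, 175 had such a symbol. From these, 38 that were not protein-coding and 1 antisense gene were left out, which gave 136 genes: 96 for potassium, 26 for calcium and 14 for sodium channels. The symbol prefix is broader than voltage gating. It also takes in inward rectifiers (KCNJ), tandem pore domain leak channels (KCNK), channels opened by calcium or sodium (KCNM, KCNN, KCNT) and accessory subunits without a pore.

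SK-N-BE(2) is an established line of human neuroblastoma, the MYCN gene of which is amplified. The cells carried either a control hairpin (shNC) or a hairpin against METTL14 (shMETTL14), delivered with a lentiviral vector, and each group had 2 RNA sequencing libraries. METTL14 partners METTL3 in the enzyme complex that writes N6-methyladenosine (m6A) into messenger RNA. All libraries came from 1 cell line, the labels do not say which hairpin sequence was used, and nothing states that replicates were separate cultures, so p-values measure only the spread between these libraries.

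Voltage-gated channels open when the membrane depolarises. Sodium channels start the action potential, potassium channels end it and hold the resting potential, and calcium channels turn it into calcium entry that drives release and gene expression. In sodium and calcium channels the pore is formed by a large alpha subunit, and smaller auxiliary subunits set its delivery to the membrane and its gating. Neuroblastoma cells descend from the sympathoadrenal lineage of the neural crest, whose mature cells are excitable.

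Depth was even, at 18925786 to 19886214 counts in genes per library. METTL14 had 753 and 754 counts in shNC libraries 1 and 2, and 303 and 321 in shMETTL14 libraries 1 and 2. Its level was 38.6 ± 1.13 CPM (counts relative to library size; mean ± SD, n = 2) in shNC and 16.1 ± 0.851 CPM in shMETTL14, which is 41.7% of control (log2 fold change -1.26, SE 0.083, adjusted p = 3.6e-11). Here and below the test is edgeR's quasi-likelihood test with Benjamini-Hochberg adjustment over all 16309 genes tested, and a gene is called when its adjusted p is under 0.05. All 12 markers of noradrenergic neuroblastoma identity were expressed (summed level 6176 to 6400 CPM per library). Of other cell types, fibroblast markers summed to 413 to 440 CPM, with all 6 tested, while the 6 markers of Schwann cells and glia summed to at most 6.37 CPM, the 4 of immune cells to at most 2.45 CPM and the 3 of endothelium to at most 0.571 CPM. All libraries came from 1 cell line, so these marker levels do not show that other cells were present. Purity of the cultures was not tested.

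The counts do not measure m6A, so the sequences bear only on where a commonly methylated word lies. The word GGACT, which holds the consensus of the methyltransferase, was located in the longest coding transcript of each tested gene (GENCODE 29, GRCh38). The windows below are the GGACT words nearest the stop codon, with the word in capitals, for 3 neighbouring sodium channel genes and for the members with the largest increase (KCNK10) and a precise decrease (SCN11A). They are chr2:165090066-165090090 for SCN3A, chr2:165389887-165389911 for SCN2A, chr2:165991159-165991183 for SCN1A, chr14:88185500-88185524 for KCNK10 and chr3:38846440-38846464 for SCN11A, all on the minus strand except SCN2A on the plus strand.
SCN3A: tgtgtcaactGGACTtcaagaggag
SCN2A: tgtgtcaacaGGACTcccacaggag
SCN1A: tttatcaacaGGACTcctttaggag
KCNK10: cattggtcttGGACTgagcgttgtg
SCN11A: acaccaggaaGGACTgtaaaaggac
The A of the word lay 74 bases after the first base of the stop codon in SCN3A, 77 in SCN2A, 76 in SCN1A, 25 in KCNK10 and 244 in SCN11A. The 3 paralogs thus carried the word at nearly the same distance past the stop codon. SCN3A and SCN2A rose, though the call of SCN2A was lost in 4 alternatives. SCN1A was not called, with 41 and 16 counts in shNC and 20 and 19 in shMETTL14. Its log2 fold change of -0.53 (SE 0.41) leaves its direction unsettled. A link between the word and these changes was not tested. Over the 68 tested members the median density was 0.94 GGACT words per kb of transcript, against 0.938 over 12782 tested protein-coding genes with such a transcript. It was 0.816 in the 21 members that rose, 0.942 in the 22 that fell and 0.961 in the 25 that were not called. The word was absent from the transcript searched of 3 tested members: KCNC1, which rose, KCNG1, which fell, and KCNAB3, which was not called. That transcript held 4295 bases for KCNC1 and 2211 for KCNG1, while all annotated exons held 14417 and 5437. The remaining exon bases were not searched.

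Of the 136 members, 18 were at 0 in all libraries and 68 passed the filter on low counts and were tested. Of the 68, 43 were called (63.2%), 21 higher and 22 lower. The share called was 52.5% over all genes tested (27.2% higher, 25.3% lower) and 58.5% over the 12809 protein-coding genes tested (33.0% higher, 25.6% lower). All 43 called members had groups that did not overlap, and groups did not overlap for 50 tested members (73.5%, against 75.5% over all genes tested). A change of at least 2-fold was seen in 19 members (27.9%), 6 higher and 13 lower, against 8.79% over all genes tested and 7.45% over protein-coding genes. The median size of the log2 fold change, sign ignored, was 0.53 over tested members and 0.30 over all genes tested. The median with its sign was -0.09 against 0.00 over all genes tested (-0.00095). Low genes weigh on these figures: 10 members passed the filter through 1 group only, and 7 of these were called, all by at least 2-fold (2 higher, 5 lower). The called 7 were KCNK10 and KCNJ14, higher, and KCNN3, KCNK6, CACNA1G, CACNG5 and SCN2B, lower. Each passed only through the group where it is high. Among the 58 members that passed through both groups, 19 rose and 17 fell, 12 by at least 2-fold (20.7%, 4 higher and 8 lower). Their median was 0.0030. No share over all genes under the same restriction was computed, so the 20.7% cannot be compared with the 8.79%.

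**Figure D1:**
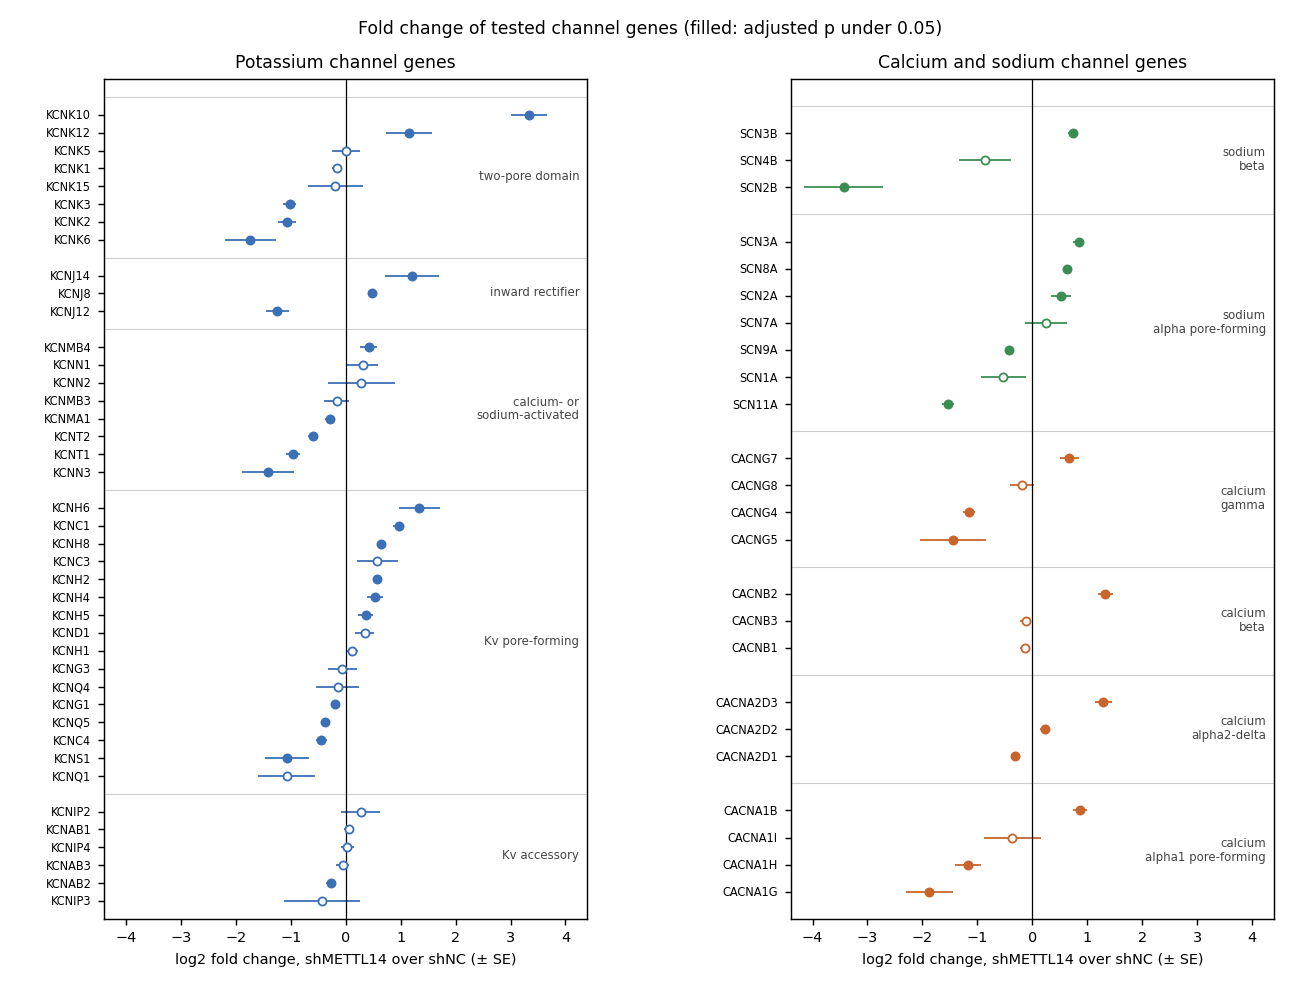
The log2 fold change (shMETTL14 over shNC) of 65 tested members, with bars of 1 SE, grouped by subunit class for potassium channels (left) and for calcium and sodium channels (right). Filled points are called members, and most classes hold called genes on both sides of 0. The point of SCN2B rests on 1 and 2 counts in shMETTL14 and depends on the prior count of the fit.

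By ion, 26 of 43 tested potassium channel genes were called (60.5%, 12 higher and 14 lower). For calcium channel genes it was 10 of 14 (71.4%, 5 and 5), and for sodium 7 of 11 (63.6%, 4 and 3). The share was 52.5% over all genes tested and 58.5% over protein-coding genes. The median log2 fold change was -0.06 for potassium, -0.16 for calcium and -0.0018 for sodium channel genes. The sign of the potassium median turned without shNC library 2 (0.10) and without shMETTL14 library 2 (0.0052), and that of the sodium median turned without shNC library 1 (0.28), without shNC library 2 (0.11) and without shMETTL14 library 2 (0.10). Each ion class held called genes in both directions, as did all genes tested (27.2% higher, 25.3% lower).

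Levels were compared between genes as RPKM, which is CPM divided by the length of the union of annotated exons in kb. This corrects for gene length only as far as that union matches the transcript expressed. The highest member in shNC was KCNG1, a modifier subunit of Kv channels, at 57.4 and 58.2 RPKM in the 2 libraries. It was followed by KCNH2 (the hERG channel) at 42.1 and 43.2 RPKM, SCN9A (Nav1.7) at 21.5 and 21.3 RPKM, KCNJ8 at 14.5 and 15.8 RPKM and CACNA2D1 at 14.4 and 14.1 RPKM. KCNJ8 and CACNA2D1 did not differ beyond their spread in this order. In shMETTL14 KCNH2 was first at 63.0 and 63.5 RPKM, KCNG1 second at 49.5 and 51.2 RPKM, then KCNJ8 at 21.3 and 20.9 RPKM and SCN9A at 15.6 and 16.4 RPKM. By this measure both pairs of leading genes changed places between the groups. The order between genes depends on the length used. The exon union held 5437 bases for KCNG1 and 5877 for KCNH2, but their longest coding transcripts held 2211 and 4286. These lengths were 13741 and 9698 for SCN9A, 2484 and 2389 for KCNJ8, and 9010 and 3858 for CACNA2D1. With transcript lengths the order may differ, and it was not computed.

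**Figure D2:**
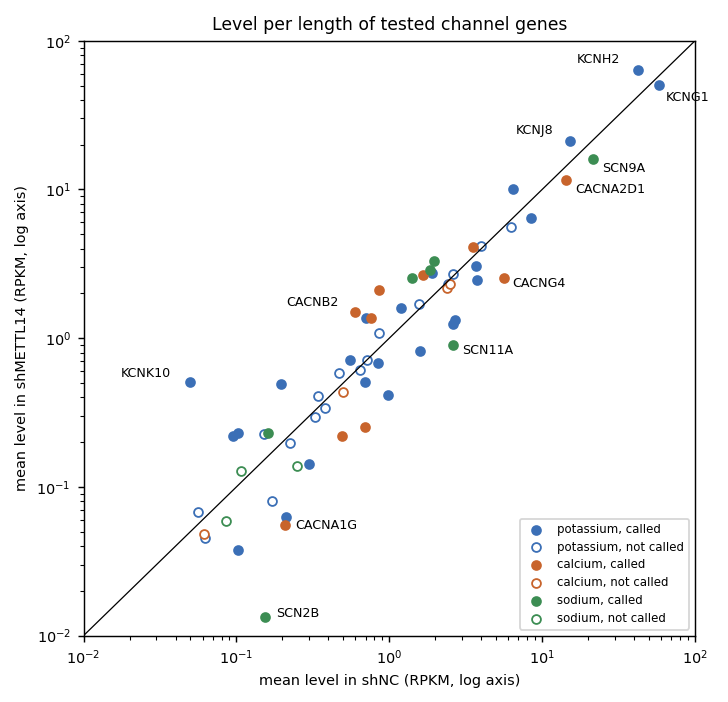
Mean level per length (RPKM, log axes) in shNC against shMETTL14 for 65 tested members, coloured by ion, with the line of equal level. KCNH2 lies above the line at 42.6 and 63.3 RPKM and SCN9A below it at 21.41 and 15.99 RPKM, and members far from the line are mostly low, such as KCNK10 and SCN2B.

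Among the 40 Kv pore-forming genes, 18 were tested, and 7 rose and 5 fell. KCNH2 (ENSG00000055118, chr7:150944961-150978315, minus strand), whose channel carries the rapid delayed rectifier current of heart and also occurs in tumour cells, had 4931 and 4859 counts in shNC and 7255 and 7180 in shMETTL14. The groups lay far apart relative to their spread, and the log2 fold change was 0.57 (SE 0.039, adjusted p = 6.8e-11). KCNG1 (ENSG00000026559, chr20:51003656-51023129, minus strand) fell from 6224 and 6057 counts to 5275 and 5356, a small change of -0.20 (SE 0.039, adjusted p = 2.1e-04).

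The ether-a-go-go family (KCNH) held 5 of these 7 increases. Of its 8 genes, 6 were tested and 5 rose, where 27.2% of all genes tested and 33.0% of protein-coding genes rose. None fell, and the median log2 fold change of the tested genes was 0.55. KCNH8 had 795 and 756 counts in shNC and 1175 and 1224 in shMETTL14 (0.64, SE 0.061, adjusted p = 1.5e-08). KCNH6 had 14 and 18 against 49 and 32 counts (1.34, SE 0.37, adjusted p = 0.0040). KCNH2 and KCNH8 kept their calls in every alternative run, while KCNH6 lost its call without shMETTL14 library 1 (1.02, adjusted p = 0.091). KCNH4, at 0.53, lost its call without shMETTL14 library 2 (0.31, adjusted p = 0.12), and KCNH5, at 0.37 (adjusted p = 0.029), lost it in 7 of 11 alternatives, with values of 0.30 to 0.38. KCNH1 was not called, at 290 and 309 against 339 and 309 counts, and its exons overlap a protein-coding gene.

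REST, a repressor of neuronal genes that binds the RE1 element, had 616 and 590 counts in shNC and 298 and 253 in shMETTL14 (log2 fold change -1.12, SE 0.091, adjusted p = 1.1e-09). Channel genes are among the classic genes with RE1 elements. For this reason 2 short words of that element, CAGCACC and GGACAGC, were searched on both strands of promoter windows (RefSeq, GRCh38.p14). Each window ran from 250 bases before to 50 after a start. Some genes have more than 1 window, so shares of windows do not count independent genes. The words were chosen after results were seen. Of 150 windows of 98 members, 18 held CAGCACC (12%, against 7.75% of 35116 windows of all genes), 13 held GGACAGC (8.67%, against 6.03%) and 4 held both (2.67%, against 0.738%). Those 4 belonged to KCNS3, which was not tested, and to KCNK3, KCNH5 and KCNH6. The stretches of the tested 3 are shown because they hold both words, which are in capitals. They lie at chr2:26692688-26692710 for KCNK3 and chr14:63045498-63045521 for KCNH5, both printed from the minus strand, and at chr17:63523124-63523150 for KCNH6, from the plus strand.
KCNK3: ggaGCTGTCCcttCAGCACCacc
KCNH5: catCAGCACCggcgGGACAGCgac
KCNH6: tttCAGCACCaaggcgtGGACAGCtcc
In KCNH5 and KCNH6 the words ran in the same orientation, with 4 and 7 bases between them, and in KCNK3 in opposite orientation with 3 between. KCNH5 and KCNH6 rose and KCNK3 fell. The order and spacing of the words were not compared with those of a whole RE1 element, so these stretches are not shown to be one. A match of letters is not a binding site, and binding of REST was not tested.

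Other Kv genes moved in both directions. KCNC1, a fast-spiking (Shaw type) channel, had 207 and 187 counts in shNC and 400 and 364 in shMETTL14 (0.96, SE 0.10, adjusted p = 9.0e-08), while its relative KCNC4 fell by 0.45 on the log2 scale. The silent subunit KCNS1 had 23 and 30 against 11 and 14 counts (-1.07, SE 0.41, adjusted p = 0.033). Its call was lost without any 1 of the 4 libraries, with values of -1.28 to -0.83, and also with DESeq2. KCNQ5, whose channels carry M-current that damps repetitive firing, fell by 0.38 on the log2 scale and kept its call in the 11 alternatives. KCNQ1 had 18 and 12 against 8 and 6 counts (-1.08, adjusted p = 0.088) and was not called.

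Of the 13 accessory genes of Kv channels 6 were tested, and 1 was called. KCNAB2, a cytosolic beta subunit, fell by 0.27 on the log2 scale, and its call was lost without shMETTL14 library 2 (-0.13) and with DESeq2. KCNAB1, KCNAB3, KCNIP2, KCNIP3 and KCNIP4 were not called, with log2 fold changes of -0.43 to 0.27.

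Of the 12 genes for potassium channels opened by calcium or sodium, 8 were tested, 4 fell and 1 rose. The sodium-activated channel gene KCNT1 had 441 and 320 counts in shNC and 188 and 199 in shMETTL14 (-0.96, SE 0.12, adjusted p = 1.0e-06). Its paralog KCNT2 fell by 0.60 and the large-conductance alpha subunit KCNMA1 by 0.29 on the log2 scale. KCNN3, a small-conductance channel that shapes the afterhyperpolarisation, had 22 and 32 against 15 and 5 counts (-1.42, SE 0.47, adjusted p = 0.015). Its value moved widely with the libraries, -2.38 without shMETTL14 library 1 and -0.84 when shMETTL14 library 2 was left out, where it was no longer called (adjusted p = 0.21), as it was not without shNC library 2 (-1.09). With DESeq2 KCNN3 was not called either (-1.44). KCNMA1 also lost its call without shMETTL14 library 2 (-0.22). KCNMB4, the neuronal beta subunit of KCNMA1 channels, rose by 0.42, with a call lost in 5 of 11 alternatives, among them without shNC library 1 (0.40), without shNC library 2 (0.43) and without shMETTL14 library 2 (0.40).

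Only 3 of the 16 inward rectifier genes were tested, and all 3 were called. KCNJ8, the pore of an ATP-sensitive channel, had 720 and 749 counts in shNC and 1036 and 1001 in shMETTL14 (0.48, SE 0.066, adjusted p = 2.3e-06). KCNJ12, a strong rectifier, had 107 and 108 against 42 and 48 counts (-1.25, SE 0.21, adjusted p = 2.6e-05). It has a near-identical copy, KCNJ18, which was listed at 0 in every library, so the split of reads between them is uncertain. KCNJ14 rose from 5 and 11 to 18 and 19 counts, but its exons overlap GRWD1 and its call was lost in 7 of the 10 alternatives run for it, among them without shNC library 1 (0.72) and without either shMETTL14 library (1.26 and 1.16).

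The K2P genes, whose tandem pore domain channels carry the leak current that sets the resting potential, held the largest increase of any tested member. Of 15, 8 were tested, and 2 rose and 3 fell. KCNK10 (ENSG00000100433, chr14:88180103-88326907, minus strand; TREK-2) had 9 and 7 counts in shNC and 77 and 85 in shMETTL14. The log2 fold change was 3.33 (SE 0.33, adjusted p = 2.4e-08), between 3.20 and 3.49 in the 10 alternatives run for it. It passed the filter on low counts through shMETTL14 only, where it is high. Its relative KCNK2 (TREK-1) went the other way, with 218 and 184 against 111 and 79 counts (-1.07, SE 0.16, adjusted p = 6.6e-06). KCNK3 (TASK-1), a leak channel closed by external acid, had 339 and 312 against 154 and 164 counts (-1.02, SE 0.11, adjusted p = 1.2e-07).

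KCNK12 had 16 and 11 counts in shNC and 21 and 39 in shMETTL14 (1.16, SE 0.42, adjusted p = 0.024). It lost its call without shMETTL14 library 2 (0.64), without shNC library 2 (0.95) and with DESeq2 (1.16). KCNK6 fell from 27 and 24 to 10 and 5 counts (-1.74), with the call lost without shMETTL14 library 2 (-1.33, adjusted p = 0.067). Per length, KCNK1 remained the highest K2P gene, at 6.26 RPKM in shNC and 5.57 RPKM in shMETTL14, and was not called. KCNK10 went from 0.378% to 5.02% of the summed RPKM of the 15 genes, and that sum was 13.0 and 13.2 RPKM in shNC and 10.2 and 9.94 RPKM in shMETTL14, a description without a test.

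**Figure D3:**
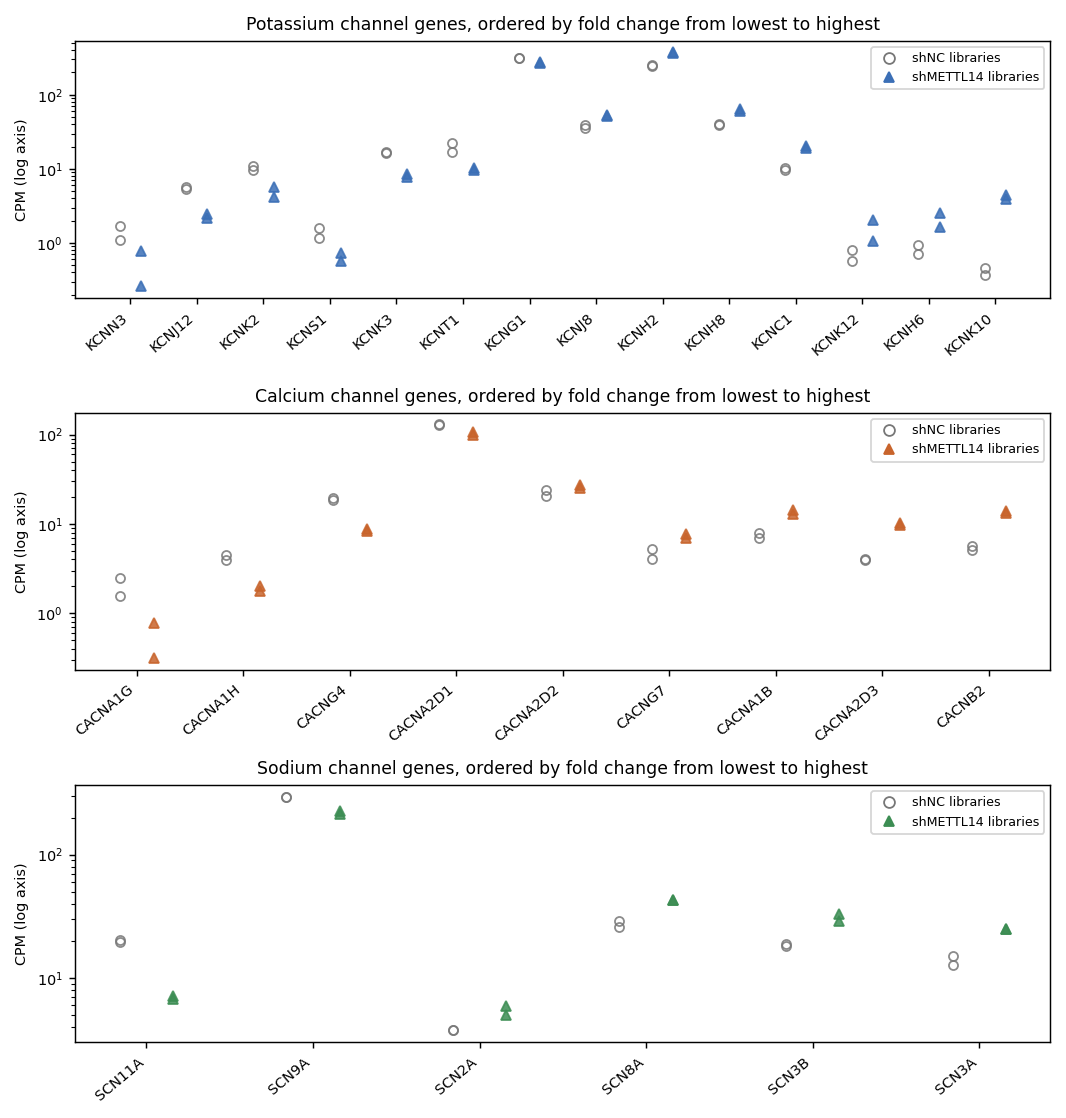
Level in each library (CPM after TMM scaling, log axes) of the potassium, calcium and sodium channel genes given in full, ordered within each panel by fold change, with circles for shNC and triangles for shMETTL14. All genes drawn were called, so separation of the groups goes with their selection and is no separate evidence. Both triangles of each gene lie on the same side of both circles. Examples are KCNK10 at 0.408 CPM in shNC and 4.18 CPM in shMETTL14 and SCN11A at 20.1 and 6.95 CPM.

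Of the 10 calcium channel pore genes (alpha1), 4 were tested, all at under 1 RPKM in shNC. CACNA1B (ENSG00000148408, chr9:137877789-138124624, plus strand), the N-type channel of presynaptic terminals and sympathetic neurons, had 158 and 134 counts in shNC and 256 and 272 in shMETTL14 (0.86, SE 0.12, adjusted p = 4.2e-06). The low-threshold T-type genes had lower counts, and CACNA1G and CACNA1I passed the filter on low counts through shNC only. CACNA1G had 31 and 47 against 15 and 6 counts (-1.88, SE 0.43, adjusted p = 8.6e-04), and its value was -2.65 with shMETTL14 library 1 left out and -1.37 with shMETTL14 library 2 left out, called both times. CACNA1H had 79 and 86 against 39 and 34 counts (-1.17, SE 0.24, adjusted p = 2.9e-04), and its exons overlap TPSG1 on the other strand. The remaining T-type gene, CACNA1I, had 15 and 11 against 6 and 14 counts and was not called.

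The makeup of the alpha1 genes thus differed between the groups. CACNA1B made up 51.9% and 45.1% of their summed RPKM in shNC libraries 1 and 2, and 79.1% and 80.9% in shMETTL14 libraries 1 and 2. CACNA1H went from 29.9% and 33.3% to 13.9% and 11.6%, and CACNA1G from 10.4% and 16.1% to 4.72% and 1.82%. The groups did not overlap for any of the 3 shares, nor for the levels of these 3 called genes. The shares follow from those levels and are no separate test. The sum itself was 1.54 and 1.57 RPKM in shNC and 1.67 and 1.77 RPKM in shMETTL14. L-type pore genes (CACNA1C, CACNA1D, CACNA1F, CACNA1S) had at most 4 counts in any library.

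Of the 4 alpha2-delta genes, whose products help carry the pore to the surface, 3 were tested, 2 rose and 1 fell. CACNA2D1 was the highest, with 2590 and 2435 counts in shNC and 1963 and 2071 in shMETTL14 (-0.31, SE 0.047, adjusted p = 9.9e-06). CACNA2D3 had 81 and 76 against 198 and 185 counts (1.295, SE 0.15, adjusted p = 2.7e-07). CACNA2D2 had 412 and 461 against 492 and 522 counts (0.22, SE 0.090, adjusted p = 0.041). The call of CACNA2D2 was lost in 7 of 11 alternatives, among them without shNC library 1 (0.11) and without shMETTL14 library 2 (0.18), and its exons overlap those of CYB561D2.

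Among the beta genes, whose products bind the pore inside the cell, CACNB2 rose from 112 and 98 to 257 and 268 counts (1.33, SE 0.13, adjusted p = 2.1e-08). CACNB1 and CACNB3, the other tested members, were not called, at -0.13 (SE 0.099) and -0.12 (SE 0.097). Among the gamma genes, CACNG4 and CACNG7, which also serve AMPA receptors, moved in opposite directions. CACNG4 had 385 and 354 counts in shNC and 162 and 169 in shMETTL14 (-1.15, SE 0.11, adjusted p = 1.2e-08), and CACNG7 had 103 and 78 against 152 and 135 counts (0.67, SE 0.17, adjusted p = 0.0018). CACNG5, next to CACNG4 on chromosome 17, had 25 and 11 against 11 and 2 counts (-1.44, adjusted p = 0.047). It lost its call without shNC library 1 (-0.77), without shMETTL14 library 2 (-0.69), with no filter and with DESeq2.

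Of the 10 sodium channel pore genes, 8 were tested, 3 rose and 2 fell. SCN9A (ENSG00000169432, chr2:166195185-166376001, minus strand), the channel of sympathetic and pain-sensing neurons, had 5900 and 5598 counts in shNC and 4188 and 4341 in shMETTL14 (-0.42, SE 0.041, adjusted p = 1.7e-08). SCN11A (ENSG00000168356, chr3:38845769-38950561, minus strand), a persistent-current channel of sensory neurons, had 392 and 393 against 140 and 130 counts (-1.53, SE 0.11, adjusted p = 2.0e-10). Both kept their calls in all 11 alternatives.

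Of the channels best known from the central nervous system, SCN3A, SCN8A and SCN2A rose and SCN1A was not called. SCN3A, the embryonic brain channel, had 299 and 245 counts in shNC and 486 and 483 in shMETTL14 (0.84, SE 0.096, adjusted p = 1.9e-07). SCN8A, the channel of mature nodes of Ranvier, had 583 and 496 against 846 and 819 counts (0.64, SE 0.077, adjusted p = 4.0e-07). SCN2A had 76 and 72 against 116 and 96 counts (0.53, SE 0.18, adjusted p = 0.020). Its call was lost without shNC library 1 (0.53), without shNC library 2 (0.52), without shMETTL14 library 1 (0.40) and with DESeq2. SCN7A was not called either.

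Neighbouring genes of 1 cluster did not all take 1 direction. SCN3A, SCN2A, SCN1A, SCN9A and SCN7A lie in that order on chromosome 2, between 165087522 and 166494326, and the first pair rose, SCN9A fell and the others were not called.

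Per length, SCN9A made up 75.1% and 76.1% of the summed RPKM of the sodium channel pore genes in shNC, and 67.4% and 69.2% in shMETTL14. SCN8A went from 6.83% and 6.20% to 12.5% and 12.01%, SCN3A from 5.32% and 4.65% to 10.9% and 10.8%, and SCN11A from 8.91% and 9.53% to 4.02% and 3.70%. The sum was 28.7 and 28.0 RPKM in shNC and 23.1 and 23.7 RPKM in shMETTL14. SCN9A therefore remained the leading pore gene in every library while the makeup of the remainder differed between the groups.

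**Figure D4:**
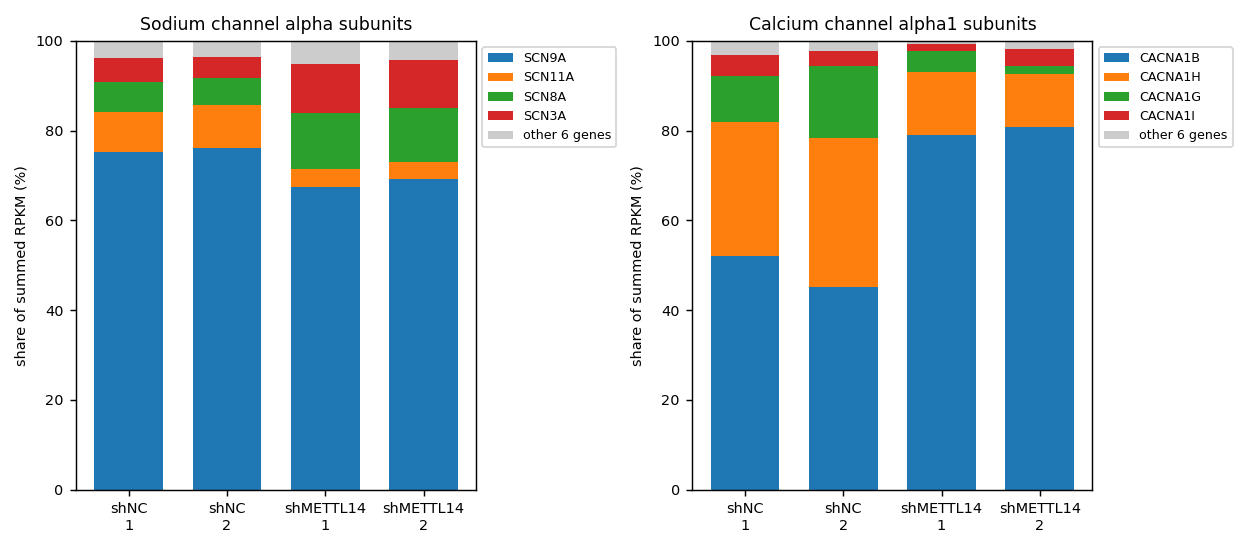
Share of the summed RPKM (%) held by each pore gene in each library, for sodium channel alpha subunits (left) and calcium channel alpha1 subunits (right), with the remaining 6 genes of each class in grey. The bars of SCN8A and SCN3A are taller and that of SCN11A shorter in shMETTL14, and CACNA1B takes 79.1% and 80.9% there against 51.9% and 45.1% in shNC.

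The sodium channel beta subunits are small adhesion proteins that adjust gating and anchoring. SCN3B had 377 and 351 counts in shNC and 647 and 563 in shMETTL14 (0.74, SE 0.087, adjusted p = 2.9e-07). SCN2B had 13 and 22 against 1 and 2 counts. Its summed counts were 11.6-fold lower (95% exact interval 3.65 to 58.9, counting error only), and it was called (adjusted p = 3.4e-04). Its neighbour SCN4B had 22 and 33 against 6 and 24 counts and was not called (adjusted p = 0.13), and shMETTL14 library 2 lay within the shNC range.

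The other 68 members were not tested. In these, 50 had a count somewhere, and the highest count in any library was 20. With no filter on low counts 3 of them were called: KCNA3, a Shaker channel, had 0 and 0 counts in shNC and 15 and 4 in shMETTL14, at least 3.17-fold higher against a floor of 3 counts per library (adjusted p = 0.0032). KCNJ9, a G-protein-gated rectifier, had 7 and 20 against 1 and 1 counts, 13.4-fold lower in sum (95% exact interval 3.37 to 116). CACNA1A, the P/Q-type pore, had 12 and 4 against 0 and 1 counts, 15.9-fold lower in sum (2.47 to 666). Intervals cover counting error only. The remaining untested genes were too low for a call at this depth.

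Genes that are related to these channels or work with them also went both ways. Of 18 other channels of the same superfamily, 8 were tested, 3 rose and 2 fell (62.5% called), with a median log2 fold change of 0.16. Of 45 partner proteins (ankyrins, FGF homologous factors, contactins, small GTPases of the Rem and Gem type and others), 34 were tested, 13 rose and 9 fell (64.7% called), with a median of 0.06. Over all genes tested 52.5% were called (27.2% higher, 25.3% lower), and over protein-coding genes 58.5%. LGI1, a secreted partner of Kv complexes, had 3 and 4 counts in shNC and 46 and 24 in shMETTL14 (3.28, SE 0.53, adjusted p = 2.1e-05). It passed the filter on low counts through shMETTL14 only, where it is high, and its shNC counts lie near the floor. CNGB1 rose by 1.07, STAC2, an adaptor of calcium channels, by 0.82 and NALF2, a subunit of the NALCN leak channel, by 0.65. CNTN1, an adhesion protein that binds sodium channel complexes, fell from 9868 and 9919 to 5684 and 5676 counts (-0.79, SE 0.039, adjusted p = 3.7e-13).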

How the data were processed

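RNA of 4 SK-N-BE(2) libraries, 2 shNC and 2 shMETTL14, was sequenced as paired ends. The authors deposited 1 table of raw counts per gene, without normalization. The submitters' processing notes name HISAT2 2.1.0, StringTie 1.3.6, HTSeq 0.13.5, edgeR and the build GRCh38 (hg38), with no role or order. The annotation release and the strand setting are not given in the sources used here, so reads in a stretch that genes share can be credited to either, and reads of near-identical paralogs can be split or dropped. Exons of 31 tested members overlap another annotated gene, and those of 8 a protein-coding one. Lines that name no gene held 19.1% to 19.9% of counts and were left out.

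Genes passing filterByExpr (minimum count 10, minimum total 15) were tested with edgeR 4.0.16 in R 4.3.3, with TMM scaling and the group as the only term. The study's methods give a general test for differences between groups and none specific to these libraries. A fold change gives shMETTL14 relative to shNC as log2, its SE was taken from the F statistic, and the biological coefficient of variation was 3.45%. An exact permutation test of 2 against 2 libraries cannot go below 0.333, so calls rest on the variance shared across genes. Simulated counts with known changes were used to check the fit. CPM are TMM-scaled, and RPKM divide them by the length of the union of exons in GENCODE 29, from which coordinates also come. Ratios for genes with 1 to 3 counts in a group carry Clopper-Pearson intervals of 95% on the summed counts. Shares and sums of RPKM are descriptions without a test.

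The members, the subunit classes and the lists of partners, related channels and markers were chosen with earlier results of these data known. Given in full were the called members whose mean log2 CPM was 0 or more, taking the largest changes (12 potassium, 8 calcium, all sodium), and the 3 highest per length of each ion. Other members were named by value or count, and up to 6 partners or related channels by size of change. Other scalings, filters, DESeq2 1.42.0, the replicate number as a block, each library left out and a 2-fold limit were tried. The count without members overlapping a protein-coding gene was added after seeing the data. A few genes are not reported here by name and not drawn, but stay in the counts and medians.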

Additional observations from a re-analysis of the deposited data

How the results depend on the processing

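Over 11 alternative fits, the 43 called members gave 466 refitted values, of which 415 kept direction and call, 51 lost the call and 0 turned. The 7 called members with under 10 counts in some library could not enter the fit that asks for 10, so 10 fits were run for them. The call held in every fit run for 29 members, 3 of those 7 among them. It was lost with DESeq2 for 10: CACNA2D2, CACNG5, KCNAB2, KCNH5, KCNJ14, KCNK12, KCNMB4, KCNN3, KCNS1 and SCN2A. With RLE, upper quartile or library size scaling, no filter or at least 10 counts in every library, 35 to 43 members were called, and with DESeq2 33, when 36.9% of all genes were called. Under upper quartile scaling the median of all genes shifted by -0.07 and 17 members rose and 23 fell, and under library size scaling by -0.05 with 18 and 23. Leaving out 1 library gave 36 to 39 members, 19 to 24 for potassium, 8 to 10 for calcium, 6 to 8 for sodium, 16 to 19 partners and 3 to 5 related channels (3 with DESeq2), while 42.5% to 44% of all genes were called, against 52.5% with all libraries. Asking also for 2-fold left 19, 11 for potassium, 6 for calcium and 2 for sodium. Without members overlapping a coding gene, 39 were called.

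Same-numbered libraries did not deviate together (Pearson r = -0.0018 and Spearman rho = 0.022 across genes), so they share only a number. With the replicate number as a block, 43 members were called, and the counts for each ion stayed at 26, 10 and 7. The share over all genes tested was then 54.7%, against 52.5% without the block.

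The potassium median was -0.13 with upper quartile scaling and -0.17 with no filter, and -0.15 to 0.10 with 1 library left out, turning sign without shNC library 2 (0.10) and without shMETTL14 library 2 (0.0052). The sodium median turned with no filter (0.029), with at least 10 counts (0.23) and without shNC library 1 (0.28), shNC library 2 (0.11) or shMETTL14 library 2 (0.10). It was -0.039 without shMETTL14 library 1 and -0.07 under upper quartile scaling. The cause was not tested. METTL14 stayed between -1.33 and -1.21. The 50 untested members with a count had at most 20 counts in a library, and changes in them were mostly not detectable at this depth.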

Other observations

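The symbol rule also matched noncoding genes beside channel genes, which the members do not include, and which were chosen for this paragraph after their values were seen. KCNQ1OT1, the long antisense transcript of the imprinted KCNQ1 locus, had 782 and 625 counts in shNC and 511 and 522 in shMETTL14 (log2 fold change -0.43, SE 0.086, adjusted p = 2.1e-04 by edgeR's quasi-likelihood test). KCNQ5-DT, which starts at the KCNQ5 promoter in the opposite direction, had 82 and 97 against 47 and 39 counts (-1.05, SE 0.23, adjusted p = 5.1e-04), beside the fall of KCNQ5 by 0.38 on the same scale. KCNH1-IT1, inside KCNH1, had 31 and 28 against 27 and 21 counts and was not called (adjusted p = 0.51). KCNQ1OT1 and KCNQ1 overlap on opposite strands, and reads in the stretch of exon they share cannot be told apart without strand counting. Other annotated genes cover 3.98% of the exon bases of KCNQ1.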
